A study of Mus musculus with 6 samples.

Results

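Genes of glycolysis and of the response to low oxygen were examined in whole mouse lung after irradiation. The set holds 36 genes out of 40842 named genes in the deposited tables. They were chosen by symbol for their textbook roles, with earlier results of these data known. Among them are 15 glycolytic enzymes, 4 glucose and lactate transporters and 3 regulators of glycolytic flux. The others are 5 genes of the hypoxia-inducible factors (HIF) and their negative regulator Vhl, and 9 HIF targets. The tissue came from female C57BL/6N mice, labelled wild type. In the irradiated group (irradiated 1 to 3), lung was taken 100 days after a single exposure to 20 Gy of 9 MeV electrons, and in the control group (control 1 to 3) untreated lung was taken at the same time point. Messenger RNA selected by its polyA tail was sequenced from 3 libraries per group. The labels name no exposed region of the body. They do not say that libraries of 1 group are from different mice either, and the p-values reflect library-to-library spread that may be technical in part.

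Levels are FPKM as deposited, that is fragments scaled for transcript length and for library size. The deposited values imply 5.11 to 10.4 Gb of aligned sequence per library, with irradiated 2 the deepest, and 13467 to 14050 named genes were at 1 FPKM or more in each. All 10 lung marker genes looked at, among them the surfactant gene Sftpc and the endothelial gene Cdh5, were at 21.6 FPKM or more in every library. In bulk tissue, a smaller share of cells of a type and less RNA per cell cannot be told apart.

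Glycolysis splits glucose into pyruvate in the cytosol, and lactate dehydrogenase and lactate transporters dispose of the product when it is not burned in mitochondria. When oxygen is plentiful, prolyl hydroxylases (Egln genes) mark the HIF alpha subunits, Vhl binds the marked protein and it is degraded. When oxygen is scarce the alpha subunits persist, pair with Arnt and bind short DNA motifs near their targets, which include many glycolytic genes. In the lung, Epas1 (HIF-2α) is known for its high level in endothelium and alveolar type 2 cells. This control acts largely on protein, which RNA levels do not measure.

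None of the 36 genes passed the test between irradiated and control lung. The test was limma on log2(FPKM + 1) over the 13908 genes that averaged 1 FPKM or more, with an adjusted p under 0.05 called. All 36 genes were in that test. Hif3a and Egln3, with control means of 0.366 and 0.818 FPKM, entered it only through the irradiated libraries, and Car9, with an irradiated mean of 0.888 FPKM, only through the controls. These 3 genes had to differ between the groups to be tested, so their test values and their place in the counts support nothing. The limma test called 25 of the 13908 genes, or 0.180%, and 0 of the 36. At an unadjusted p under 0.05 it gave 6 of the 36 (16.7%), beside 17.7% of all genes tested. Of these, 4 were higher (Hif3a, Adm, Slc2a1 and Pfkfb3), where the rate over all genes was 7.41%, and 2 were lower (Ldhb and Slc16a1), where it was 10.3%.

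The 3 irradiated libraries lay above all 3 control libraries for 6 genes (Gpi1, Slc2a1, Pfkfb3, Pfkfb4, Hif3a and Adm), beside a rate of 9.91% over all genes tested. They lay below all 3 control libraries for 3 genes (Pfkp, Slc16a1 and Egln1), beside a rate of 14.6%. Together these 9 genes were 25.0% of the set, near the 24.5% of all genes. In the loci that the authors assembled over the same genes, 7 of the 9 were again separated and 2, Pfkp and Pfkfb4, overlapped, while Car9 was separated there alone. The log2 change, the group mean of log2(FPKM + 1) in irradiated minus that in control lung, was positive for 23 genes and negative for 13. Its median was 0.08, against -0.03 over all genes tested, of which 44.2% had a positive change. Scaling the libraries to a common sum moved the median of all genes to 0.08, and 5 of the 13 negative changes then turned positive, those of Pfkl, Aldoa, Egln1, Bnip3l and Ndrg1. This scaling moved the set's genes up too, with medians of 0.16 for the enzymes and 0.21 for the HIF targets. As a whole, the share of the set that separated the groups was close to the rate over all genes.

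**Figure D1:**
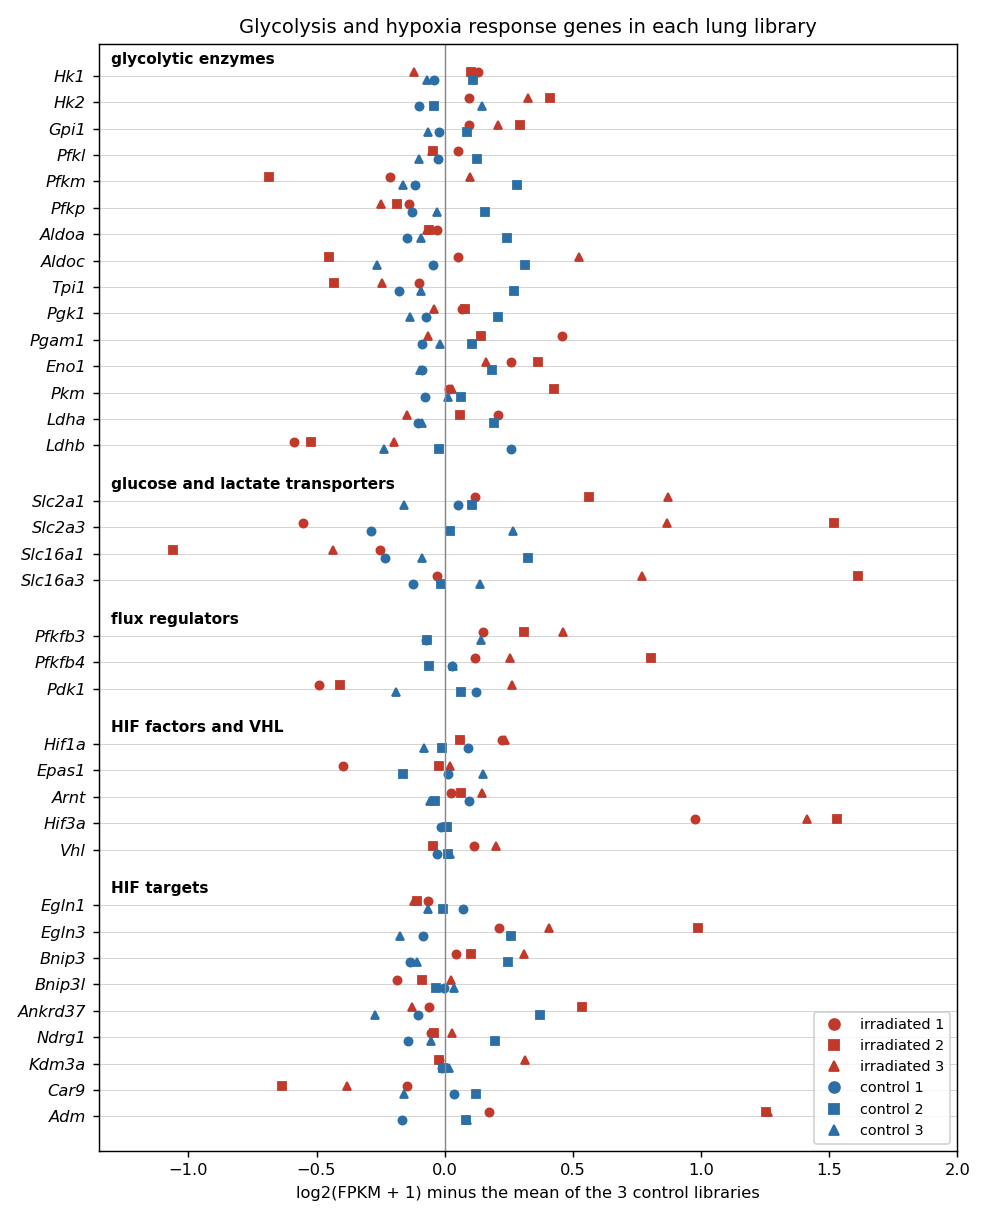
Each row is 1 of the 36 genes, and each point a library's log2(FPKM + 1) minus the mean of the 3 control libraries (irradiated red, control blue). Hif3a and Adm in irradiated 2 and 3 stand to the right of the controls, Slc2a3 and Slc16a3 spread over a wide range within the irradiated group, and most enzymes lie among their controls.

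Among the HIF factors, Hif3a was the gene with the largest change of the set. Hif3a encodes the third alpha subunit, whose mouse splice forms include an inhibitor of HIF. The gene (chromosome 7, 16764918 to 16796352, GRCm39) was at 1.69, 2.95 and 2.64 FPKM in irradiated 1, 2 and 3, against 0.352, 0.372 and 0.372 FPKM in control 1, 2 and 3. All 3 irradiated libraries lay above every control, and the control libraries lay within a narrow band. The mean was 2.42 ± 0.658 FPKM in irradiated lung and 0.366 ± 0.0116 FPKM in control lung (SD, n = 3 each), a ratio of 6.63. The log2 change was 1.31 ± 0.18 (SE), with an adjusted p of 0.0565 in limma, in a test that the gene entered only through its irradiated values. With a pseudocount of 0.1 in place of 1 the log2 change was 2.40 and the adjusted p 0.0513 in limma. Over the alternatives the adjusted p in limma ran between 0.0447 and 0.282, and it passed only without irradiated 1. Loci assembled by the authors over the same gene gave 1.69, 3.30 and 2.94 FPKM in irradiated 1, 2 and 3 and 0.399, 0.510 and 0.342 FPKM in control 1, 2 and 3, and the groups did not overlap there either. These levels are low, and without counts their counting error cannot be given.

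The other HIF factors lay near their controls. Epas1 was by far the most abundant of them, at 334 ± 50.9 FPKM in irradiated lung and 365 ± 39.1 FPKM in control lung (SD, n = 3 each), with a log2 change of -0.13 and an adjusted p of 0.691 in limma. Irradiated 1 held the lowest Epas1 value, 275 FPKM, and the groups overlapped. Endothelial markers were lower in sum in part of the irradiated libraries, at 961 to 1171 FPKM in irradiated lung and 1113 to 1421 FPKM in control lung over 12 genes, of which 11 had a negative log2 change. Over 10 alveolar type 2 markers the sum was 14755 to 16870 FPKM in irradiated lung and 22222 to 24908 FPKM in control lung. Much of this sum was Sftpc alone, at 8741 to 9588 FPKM in irradiated lung and 14677 to 16828 FPKM in control lung. Of the 10 genes, 9 had a negative log2 change and 1, Sftpd, a positive one, with a median of -0.28. No endothelial or type 2 marker was at 0, and the part of these cell types in the Epas1 level was not tested. Hif1a, the alpha subunit found in nearly all cells, was at 17.3 ± 1.21 FPKM in irradiated lung and 15.2 ± 0.986 FPKM in control lung, with overlapping groups and an adjusted p of 0.372 in limma. Arnt, the shared beta subunit, was at 17.3 ± 0.774 FPKM in irradiated lung and 16.4 ± 1.01 FPKM in control lung. Vhl, part of the ubiquitin ligase that binds hydroxylated HIF, was at 9.42 ± 0.879 FPKM in irradiated lung and 8.77 ± 0.183 FPKM in control lung.

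Within the summed level of the 3 alpha subunits, Epas1 made up 94.3 ± 0.867% in irradiated lung and 95.9 ± 0.541% in control lung (SD, n = 3 each). The share of Hif3a was 0.677 ± 0.106% in irradiated lung and 0.0969 ± 0.0110% in control lung. Epas1 was 93.4% or more of that sum in every library, so Hif3a was a minor part of the alpha subunit RNA in both groups.

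**Figure D2:**
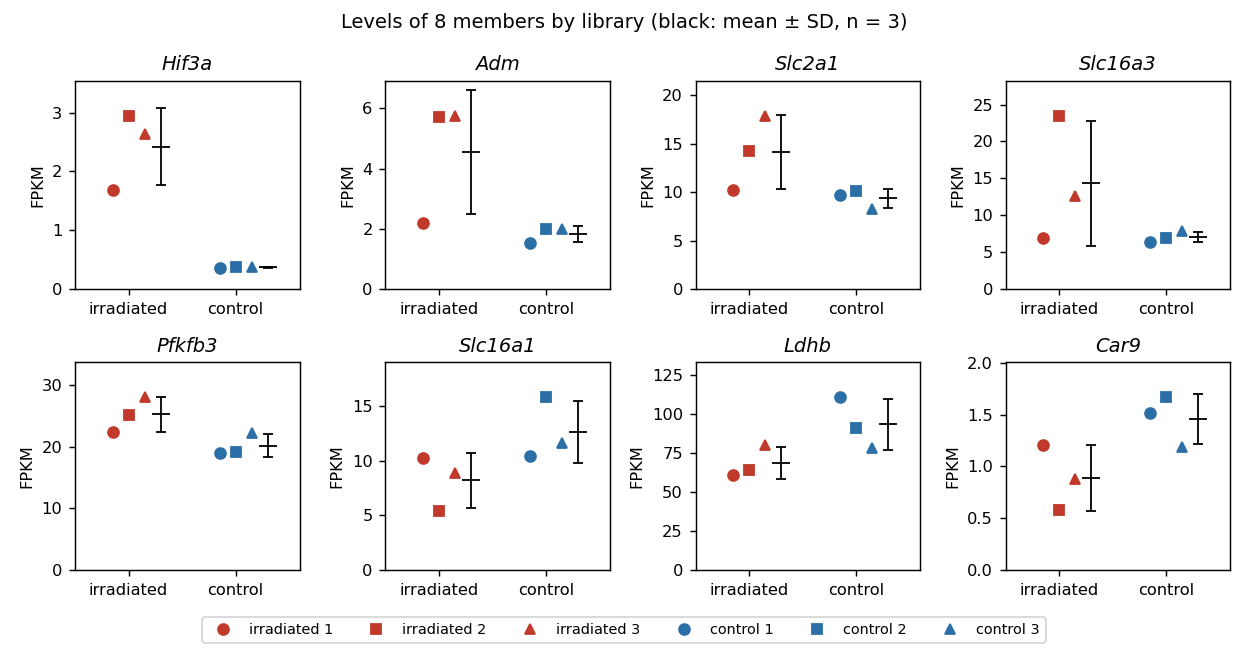
FPKM in each library for 8 genes, irradiated left and control right of each panel, with the mean and SD in black (n = 3 each). The irradiated libraries lie above every control for Hif3a, Adm, Slc2a1 and Pfkfb3 and below every control for Slc16a1, while the groups overlap for Slc16a3, Ldhb and Car9.

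Of the 9 HIF targets, 5 had a positive and 4 a negative log2 change. Adm stood out among them. It encodes adrenomedullin, a peptide that widens vessels and tightens the endothelial barrier. The gene (chromosome 7, 110226864 to 110229027, GRCm39) was at 2.18, 5.73 and 5.76 FPKM in irradiated 1, 2 and 3, against 1.51, 1.99 and 1.99 FPKM in control 1, 2 and 3. Irradiated 1 lay just above the controls, while irradiated 2 and 3 lay far above them. The mean was 4.55 ± 2.06 FPKM in irradiated lung and 1.83 ± 0.276 FPKM in control lung (SD, n = 3 each), a ratio of 2.49. The log2 change was 0.90 ± 0.30 (SE), with an adjusted p of 0.208 in limma. Without irradiated 1 the adjusted p was 0.0447 in limma, and over the alternatives it reached 0.557.

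Car9 and Egln3 were low in lung. Car9 encodes a membrane carbonic anhydrase that helps cells export acid, and is among the targets that depend most on HIF-1. It (chromosome 4, 43507026 to 43513729, GRCm39) was at 1.21, 0.577 and 0.880 FPKM in irradiated 1, 2 and 3, against 1.51, 1.67 and 1.19 FPKM in control 1, 2 and 3. Irradiated 2 and 3 lay below all controls, and irradiated 1 overlapped with control 3. The log2 change was -0.39 ± 0.17 (SE), with an adjusted p of 0.303 in limma. Car9 shares 1722 bases with Arhgef39 on the opposite strand, which was at 1.26 FPKM in irradiated lung and 1.41 FPKM in control lung, and whether counting used the strand is not given in the sources used here. Egln3, a prolyl hydroxylase that HIF itself induces, was at 1.08, 2.58 and 1.39 FPKM in irradiated 1, 2 and 3, against 0.702, 1.16 and 0.596 FPKM in control 1, 2 and 3. Irradiated 1 overlapped with control 2 and the other two irradiated libraries lay above all controls, with a log2 change of 0.54 ± 0.24 (SE), which was 0.31 without irradiated 2, and an adjusted p of 0.299 in limma. As for Hif3a, the test values of Car9 and Egln3 carry the limit that each gene passed the minimum level through 1 group. With a pseudocount of 0.1 the log2 change was -0.69 for Car9 and 0.92 for Egln3.

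The remaining HIF targets stayed close to their controls. Egln1, the main oxygen sensor among the prolyl hydroxylases, was at 17.7 ± 0.386 FPKM in irradiated lung and 19.1 ± 0.951 FPKM in control lung (SD, n = 3 each). Its groups did not overlap, but by a narrow margin, at 18.16 FPKM in the highest irradiated library and 18.17 FPKM in the lowest control library, and its log2 change was -0.10, against 0.025 with common-sum scaling. Its adjusted p was 0.550 in limma. Bnip3 and Bnip3l, receptors that send mitochondria to autophagy, had log2 changes of opposite sign that lay within their spread. Bnip3 was at 33.7 ± 3.39 FPKM in irradiated lung and 30.3 ± 4.80 FPKM in control lung. Bnip3l was at 48.5 ± 3.63 FPKM in irradiated lung and 51.4 ± 1.24 FPKM in control lung. Ankrd37, a small ankyrin repeat gene used as a HIF reporter, was at 4.16 ± 1.39 FPKM in irradiated lung and 3.74 ± 1.14 FPKM in control lung. Ndrg1, a stress-induced gene, was at 14.8 ± 0.482 FPKM in irradiated lung and 15.1 ± 2.00 FPKM in control lung. Kdm3a, a histone H3K9 demethylase, was at 11.2 ± 1.71 FPKM in irradiated lung and 10.4 ± 0.114 FPKM in control lung. Adjusted p-values of these 5 genes in limma were 0.590 or more.

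The start regions of the 4 HIF targets with the smallest p are shown because HIF is known to bind a short core, ACGTG or GCGTG, and a reader can see in them where that core stands. Each is the RefSeq window of GRCm38.p6 that runs from 250 bases before to 50 bases after the annotated gene start, on the strand of the gene. The windows are chr7:110627407-110627706 (plus strand) for Adm, chr12:54203825-54204124 (minus strand) for Egln3, chr4:43506776-43507075 (plus strand) for Car9 and chr8:124949205-124949504 (minus strand) for Egln1. Capitals mark the core on either strand, so that its reverse complement reads CACGT or CACGC.
Adm: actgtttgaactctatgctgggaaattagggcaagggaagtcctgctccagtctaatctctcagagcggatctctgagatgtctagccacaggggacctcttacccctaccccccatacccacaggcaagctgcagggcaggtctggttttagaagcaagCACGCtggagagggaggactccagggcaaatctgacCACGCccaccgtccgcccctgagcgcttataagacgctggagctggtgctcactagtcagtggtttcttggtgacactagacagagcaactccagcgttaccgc
Egln3: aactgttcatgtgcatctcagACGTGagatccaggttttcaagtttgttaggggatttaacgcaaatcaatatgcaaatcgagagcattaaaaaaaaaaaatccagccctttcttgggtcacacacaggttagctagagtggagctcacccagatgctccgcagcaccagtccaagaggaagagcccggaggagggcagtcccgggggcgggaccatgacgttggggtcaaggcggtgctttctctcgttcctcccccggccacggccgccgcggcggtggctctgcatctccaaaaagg
Car9: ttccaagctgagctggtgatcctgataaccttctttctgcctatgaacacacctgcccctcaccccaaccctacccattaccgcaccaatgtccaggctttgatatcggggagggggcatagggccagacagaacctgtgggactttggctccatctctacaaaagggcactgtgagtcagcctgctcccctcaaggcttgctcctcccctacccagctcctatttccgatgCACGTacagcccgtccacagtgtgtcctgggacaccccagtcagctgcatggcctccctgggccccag
Egln1: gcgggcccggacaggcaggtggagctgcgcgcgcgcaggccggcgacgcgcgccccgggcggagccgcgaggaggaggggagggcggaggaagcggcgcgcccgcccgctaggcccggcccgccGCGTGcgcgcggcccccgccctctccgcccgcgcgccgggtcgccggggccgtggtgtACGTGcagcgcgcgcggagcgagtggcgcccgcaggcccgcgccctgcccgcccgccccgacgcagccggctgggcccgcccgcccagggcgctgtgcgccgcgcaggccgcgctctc

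In these windows the positions of the core's first base were counted from the gene start. Adm held GCGTG at -90 and -54 on the opposite strand and no ACGTG. Egln3 held ACGTG at -229, Car9 held ACGTG at -18 on the opposite strand, and Egln1 held GCGTG at -126 and ACGTG at -68. The 4 genes thus all carried a core. The Hif3a window held GCGTG at -230 on the opposite strand and at -186.

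Windows were matched by symbol for 32 of the 36 genes, 47 windows in all; Bnip3l, Slc2a3, Ndrg1 and Epas1 were not matched. Either core, on either strand, was in 37 of the 47 windows (78.7%). The share was 60.1% of the 13557 windows of genes tested and 43.8% of all 32851 windows in the table. ACGTG alone was in 46.8% of the set's windows, in 24.9% of those of genes tested and in 19.6% of all windows. Of the enzymes, 13 of 15 genes held either core and 9 held ACGTG. Of the 7 HIF targets matched, all 7 held either core and 5 held ACGTG. Counted by gene, 6985 of the 10613 tested genes matched held either core and 3050 held ACGTG. A gene with more windows has more places for a core, and the 15 enzymes had 26 windows. Ldha, for example, held 5 copies of ACGTG in a single window, as both strands of overlapping sites were counted. A match is a description of the letters in the window and not a binding site.

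Of the 15 glycolytic enzymes, 9 had a positive and 6 a negative log2 change, with a median of 0.04 and a range of -0.44 to 0.28. Their levels summed to 853 to 911 FPKM in irradiated lung and 828 to 985 FPKM in control lung. Ldhb, the lactate dehydrogenase subunit typical of oxidative tissue, had the largest change among them. The gene (chromosome 6, 142435975 to 142453683, GRCm39) was at 61.2, 64.0 and 80.5 FPKM in irradiated 1, 2 and 3, against 111, 91.0 and 78.3 FPKM in control 1, 2 and 3. Irradiated 1 and 2 lay below all controls, and irradiated 3 overlapped with control 3. The mean was 68.6 ± 10.4 FPKM in irradiated lung and 93.4 ± 16.4 FPKM in control lung (SD, n = 3 each), with a log2 change of -0.44 ± 0.16 (SE) and an adjusted p of 0.236 in limma.

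In the order of the pathway, the hexokinases trap glucose in the cell. Hk1, the housekeeping form, was at 17.8 ± 1.73 FPKM in irradiated lung and 17.3 ± 1.25 FPKM in control lung (SD, n = 3 each, here and for the enzymes that follow). Hk2, the inducible form, was at 5.30 ± 0.696 FPKM in irradiated lung and 4.19 ± 0.468 FPKM in control lung, with a log2 change of 0.28 and an adjusted p of 0.312 in limma. Gpi1, which turns glucose 6-phosphate into fructose 6-phosphate, was the enzyme whose irradiated libraries all lay above the controls. It was at 68.6 ± 4.73 FPKM in irradiated lung and 59.6 ± 3.37 FPKM in control lung, with a log2 change of 0.20 and an adjusted p of 0.323 in limma. Phosphofructokinase commits sugar to glycolysis, and its platelet form Pfkp lay below all controls, at 12.7 ± 0.518 FPKM in irradiated lung and 14.7 ± 1.61 FPKM in control lung, with an adjusted p of 0.367 in limma. In the assembled loci the groups overlapped, with Pfkp at 13.2, 15.1 and 12.2 FPKM in irradiated 1, 2 and 3 and at 13.3, 15.6 and 15.7 FPKM in control 1, 2 and 3. The liver form Pfkl was at 14.5 ± 0.629 FPKM in irradiated lung and 14.7 ± 1.27 FPKM in control lung. The muscle form Pfkm was at 7.37 ± 2.21 FPKM in irradiated lung and 8.92 ± 1.76 FPKM in control lung.

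In the middle of the pathway the groups overlapped for each enzyme. Aldoa, the aldolase of most tissues, was the most abundant of the 15 enzymes at 214 ± 3.13 FPKM in irradiated lung and 224 ± 34.0 FPKM in control lung. Aldoc, the brain form, was at 2.16 ± 1.05 FPKM in irradiated lung and 1.99 ± 0.614 FPKM in control lung. Tpi1 interconverts the 2 triose phosphates and was at 51.7 ± 5.98 FPKM in irradiated lung and 62.4 ± 10.8 FPKM in control lung, with an adjusted p of 0.400 in limma. The kinase Pgk1, which makes ATP, was at 44.5 ± 2.08 FPKM in irradiated lung and 43.6 ± 5.86 FPKM in control lung. The mutase Pgam1 was at 17.6 ± 3.44 FPKM in irradiated lung and 15.3 ± 1.14 FPKM in control lung.

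At the end of the pathway, Eno1, the enolase of most tissues, was at 76.5 ± 5.45 FPKM in irradiated lung and 63.9 ± 7.46 FPKM in control lung. Irradiated 3, at 71.2 FPKM, lay under control 2, at 72.5 FPKM, and the log2 change was 0.26 with an adjusted p of 0.293 in limma. Pkm, the pyruvate kinase outside liver and red cells, was at 152 ± 25.8 FPKM in irradiated lung and 135 ± 6.55 FPKM in control lung. Ldha, the lactate dehydrogenase subunit that HIF induces, was at 130 ± 16.1 FPKM in irradiated lung and 127 ± 15.3 FPKM in control lung, with a log2 change of 0.04. Several of these enzymes have processed pseudogenes in the mouse genome, and how reads shared with such copies were assigned is not given in the sources used here.

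Control 2 held the highest value of all 6 libraries for Pfkl, Pfkm, Pfkp, Aldoa, Tpi1 and Pgk1. The same library stood apart in markers of striated muscle and of fat. Markers of striated muscle (12 genes) summed to 23.2 to 271 FPKM in irradiated lung and 84.1 to 592 FPKM in control lung, lowest in irradiated 2 and highest in control 2. Markers of fat (8 genes) summed to 13.7 to 204 FPKM in irradiated lung and 22.1 to 460 FPKM in control lung, with the same libraries at the ends. Pfkm, the muscle form, was also lowest in irradiated 2, at 5.11 FPKM, and highest in control 2, at 10.9 FPKM. Without irradiated 2 and control 2 the log2 change of Pfkm was 0.083, against -0.27 with them. Those libraries held the lowest and the highest Pfkm value, so leaving them out had to raise the change. The part of muscle or fat in these levels was not tested.

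Among the transporters, Slc2a1 and Slc16a1 separated the groups in opposite directions. Slc2a1 encodes GLUT1, the glucose carrier of most cells and a HIF target. The gene (chromosome 4, 118965942 to 118994527, GRCm39) was at 10.2, 14.3 and 17.9 FPKM in irradiated 1, 2 and 3, against 9.70, 10.1 and 8.26 FPKM in control 1, 2 and 3. Irradiated 1 lay just above the controls and irradiated 2 and 3 lay well above them. The mean was 14.1 ± 3.83 FPKM in irradiated lung and 9.37 ± 0.982 FPKM in control lung (SD, n = 3 each), with a log2 change of 0.52 ± 0.19 (SE) and an adjusted p of 0.237 in limma. Without irradiated 3 the log2 change was 0.34.

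Slc16a1 encodes MCT1, which carries lactate and pyruvate and in many tissues takes lactate up. The gene (chromosome 3, 104545980 to 104565778, GRCm39) was at 10.3, 5.42 and 8.90 FPKM in irradiated 1, 2 and 3, against 10.4, 15.8 and 11.6 FPKM in control 1, 2 and 3. Every irradiated library lay below every control, irradiated 1 by a small margin, with irradiated 2 the lowest and control 2 the highest. The mean was 8.20 ± 2.50 FPKM in irradiated lung and 12.6 ± 2.82 FPKM in control lung (SD, n = 3 each), with a log2 change of -0.58 ± 0.24 (SE) and an adjusted p of 0.271 in limma. The log2 change was -0.34 without irradiated 2 and -0.18 without irradiated 2 and control 2. Leaving out the lowest irradiated and the highest control value had to make it less negative. These libraries were also at the ends of the muscle and fat marker sums. The part of muscle or fat in the Slc16a1 level was not tested.

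Slc16a3 encodes MCT4, the lactate exporter of glycolytic cells. The gene (chromosome 11, 120839310 to 120849826, GRCm39) was at 6.85, 23.5 and 12.7 FPKM in irradiated 1, 2 and 3, against 6.36, 6.93 and 7.82 FPKM in control 1, 2 and 3. Irradiated 2 and 3 lay above all controls and irradiated 1 lay among them. The log2 change was 0.78 ± 0.38 (SE), with an adjusted p of 0.346 in limma, and it was 0.37 without irradiated 2 and 1.19 without irradiated 1. Slc16a3 shares 1292 bases with Csnk1d on the opposite strand, which was at 36.7 FPKM in irradiated lung and 36.8 FPKM in control lung. Slc2a3 encodes GLUT3, a high-affinity glucose carrier of neurons and white blood cells. It was at 3.04, 16.0 and 9.82 FPKM in irradiated 1, 2 and 3, against 3.86, 5.02 and 6.14 FPKM in control 1, 2 and 3, with irradiated 1 the lowest and irradiated 2 the highest of all 6. Its log2 change was 0.61 ± 0.51 (SE), with an adjusted p of 0.574 in limma, and it was 0.16 without irradiated 2 and 1.19 without irradiated 1.

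Neutrophils live largely on glycolysis, and their markers varied over the same libraries. The 12 neutrophil markers summed to 253, 4774 and 1461 FPKM in irradiated 1, 2 and 3 and to 175, 130 and 536 FPKM in control 1, 2 and 3. Much of this sum was S100a8 and S100a9, at 2029 and 1935 FPKM in irradiated 2 and at 510 and 665 FPKM in irradiated 3. Ltf stood otherwise, highest in control 2 at 52.9 FPKM. None was at 0 in every library, all 10 that were tested had a positive log2 change, and Mpo and Elane, genes of neutrophil precursors, stayed at 0.61 FPKM or less. Of these 10 genes, 0 had an unadjusted p under 0.05 in limma, beside 17.7% of all genes tested. The groups overlapped for all 10. Irradiated 2 and 3 led in this sum and in Slc2a3 and Slc16a3, and among the controls the same held for control 3. Irradiated 1 had a higher sum than control 1 and control 2, but the lowest Slc2a3 of all 6 libraries. Hk3, the hexokinase of white blood cells, was looked at after its values were seen, and was at 1.55, 10.5 and 4.36 FPKM in irradiated 1, 2 and 3, against 1.77, 1.18 and 2.37 FPKM in control 1, 2 and 3. For Hk3 too, irradiated 2 and 3 led, and control 3 led among the controls, while irradiated 1 lay below control 1. Its adjusted p was 0.380 in limma. Markers of macrophages and monocytes (12 genes) summed to 385 to 604 FPKM in irradiated lung and 262 to 328 FPKM in control lung. Much of this sum was Chil3 alone, at 233 to 417 FPKM in irradiated lung and 126 to 175 FPKM in control lung. Of the 12 genes, 10 had a positive log2 change and 2, Marco and Siglecf, a negative one. Marco was at 0.418 to 4.01 FPKM in irradiated lung and 4.81 to 8.24 FPKM in control lung. The part of neutrophils or macrophages in the transporter levels was not tested.

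**Figure D3:**
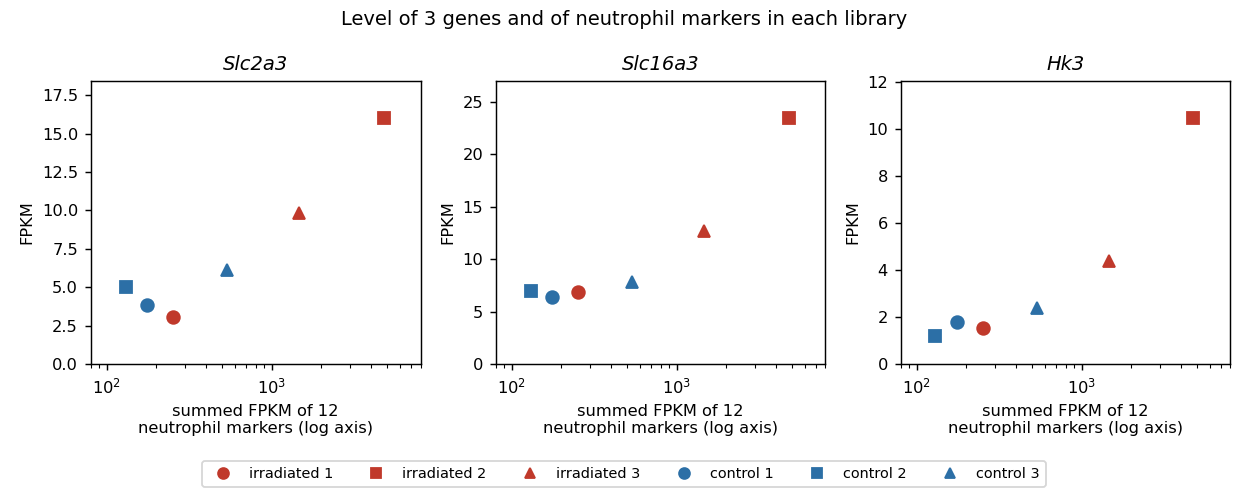
FPKM of Slc2a3, Slc16a3 and Hk3 in each library against the summed FPKM of 12 neutrophil markers on a log axis (irradiated red, control blue). Hk3 was chosen after its values were seen. Irradiated 2, with a marker sum of 4774 FPKM, is highest in all 3 panels and irradiated 3, at 1461 FPKM, comes next, while irradiated 1, at 253 FPKM, lies with the controls.

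The 3 regulators of flux act at branch points. Pfkfb3 makes fructose 2,6-bisphosphate, the strongest activator of phosphofructokinase. The gene (chromosome 2, 11476241 to 11558882, GRCm39) was at 22.4, 25.1 and 28.0 FPKM in irradiated 1, 2 and 3, against 19.0, 19.1 and 22.2 FPKM in control 1, 2 and 3. The groups did not overlap, although irradiated 1 and control 3 nearly met. The mean was 25.2 ± 2.79 FPKM in irradiated lung and 20.1 ± 1.84 FPKM in control lung (SD, n = 3 each), with a log2 change of 0.31 ± 0.11 (SE) and an adjusted p of 0.230 in limma. Pfkfb4, its HIF-induced relative, was at 15.6 ± 4.37 FPKM in irradiated lung and 11.3 ± 0.451 FPKM in control lung, without overlap, with a log2 change of 0.39 and an adjusted p of 0.306 in limma. Irradiated 2 was the highest for Pfkfb4, at 20.5 FPKM, and without it the log2 change was 0.19. In the assembled loci the groups overlapped, with Pfkfb4 at 13.4, 23.1 and 17.9 FPKM in irradiated 1, 2 and 3 and at 14.1, 13.0 and 13.6 FPKM in control 1, 2 and 3. Pdk1, a pyruvate dehydrogenase kinase, lay the other way at 6.06 ± 2.15 FPKM in irradiated lung and 6.98 ± 0.887 FPKM in control lung. Its groups overlapped, with an adjusted p of 0.644 in limma.

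HIF targets and glycolytic enzymes differed little in their median change. The median log2 change was 0.09 over the 9 HIF targets and 0.04 over the 15 enzymes, a difference of 0.05. Set against the control mean within each library, the median of the HIF targets minus that of the enzymes was -0.10, -0.09 and 0.08 in irradiated 1, 2 and 3, against 0.01, -0.03 and 0.03 in control 1, 2 and 3. Libraries of a group differed by 0.07 (pooled SD), more than the difference itself. The difference was -0.024 without irradiated 2, -0.097 without irradiated 3 and -0.051 without control 2. When the transporters Slc2a1, Slc2a3 and Slc16a3 and the regulators Pfkfb3, Pfkfb4 and Pdk1, which are HIF targets too, were added to make 15 targets, the median was 0.15 and the difference from the enzymes 0.12. In that wider list the difference was -0.08, 0.25 and 0.36 in irradiated 1, 2 and 3, against 0.02, -0.09 and 0.04 in control 1, 2 and 3. Irradiated 2 and 3 were above all controls and irradiated 1 was not. The same libraries held the higher neutrophil marker sums given above. Slc2a3 and Slc16a3, already set beside those sums, are in the wider list, so the match is partly built in. The part of neutrophils in it was not tested.

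**Figure D4:**
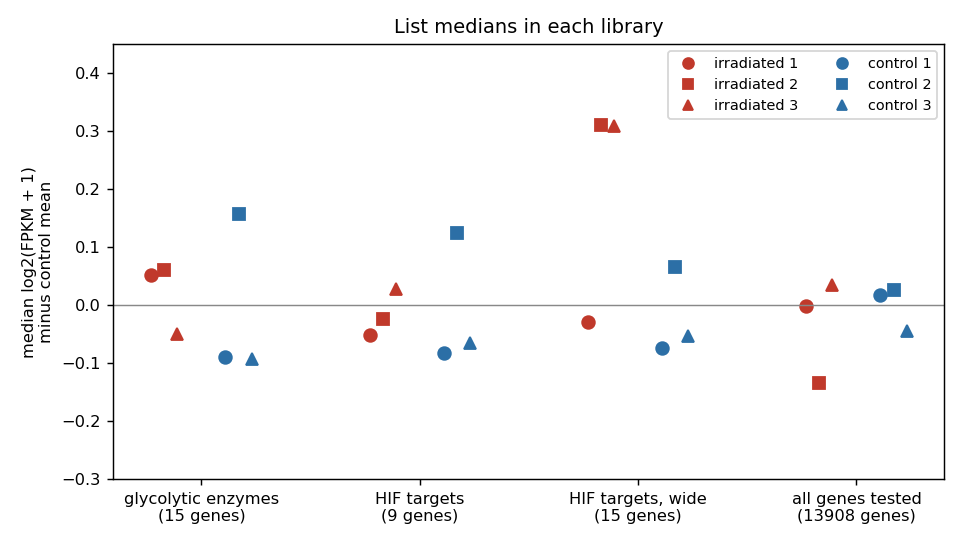
Median over each list of log2(FPKM + 1) minus the control mean, per library (irradiated red and to the left, control blue). Irradiated 2 and 3 stand at 0.31 for the wider HIF target list, whereas for the enzymes and the 9 HIF targets the irradiated libraries lie between the lowest and the highest control.

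Shares within gene families, which do not depend on the scaling of a library, showed which form was the more abundant in each library. Ldha was 70.4, 67.2 and 58.5% of the lactate dehydrogenase sum in irradiated 1, 2 and 3, against 51.4, 61.3 and 60.2% in control 1, 2 and 3. Irradiated 1 and 2 lay above all controls and irradiated 3 lay among them, with means of 65.4 ± 6.15% in irradiated lung and 57.6 ± 5.45% in control lung (SD, n = 3 each). Slc16a3 was 40.0, 81.2 and 58.7% of the sum with Slc16a1 in irradiated 1, 2 and 3, against 38.0, 30.5 and 40.2% in control 1, 2 and 3. In irradiated 2 and 3 the exporter form therefore made up most of the sum, whereas in irradiated 1 and all controls it was the smaller part. Hk2 was 23.0 ± 3.37% of the sum with Hk1 in irradiated lung and 19.5 ± 2.46% in control lung. The share of Slc2a3 beside Slc2a1 was 37.1 ± 15.1% in irradiated lung and 34.7 ± 7.22% in control lung. Egln3 made up 8.60 ± 3.72% of the sum with Egln1 in irradiated lung and 4.10 ± 1.43% in control lung. Pfkl was 42.0 ± 2.45% of the phosphofructokinase sum in irradiated lung and 38.4 ± 1.66% in control lung. Pfkm made up 21.1 ± 5.33% in irradiated lung and 23.1 ± 1.79% in control lung. Aldoa was 99.0 ± 0.485% of the sum with Aldoc in irradiated lung and 99.1 ± 0.159% in control lung.

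**Figure D5:**
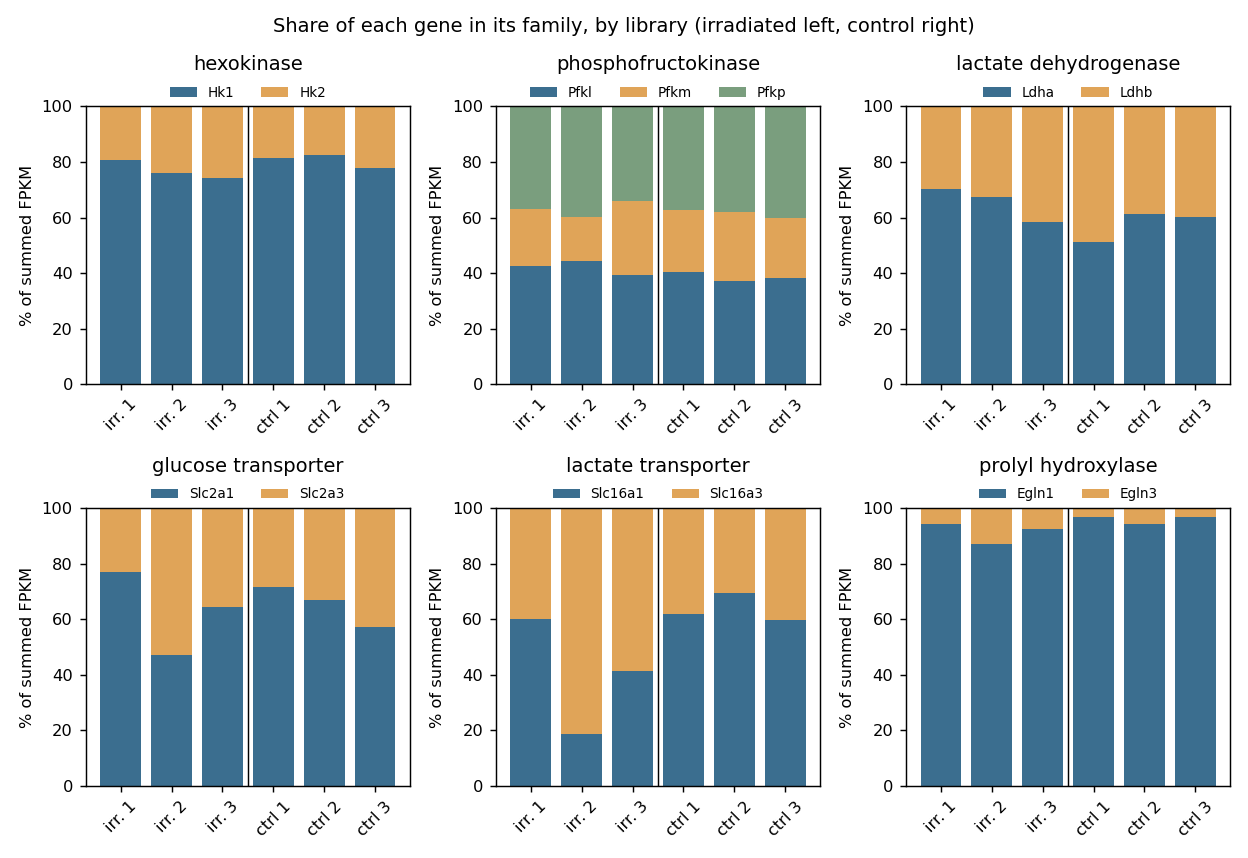
Share of each gene in the summed FPKM of its family, in % and stacked to 100%, for irradiated 1 to 3 left of the line and control 1 to 3 right of it. Slc16a3 takes 81.2% and 58.7% of the lactate transporter sum in irradiated 2 and 3, against 30.5 to 40.2% in the controls, and Pfkm ranges between 15.9% in irradiated 2 and 26.6% in irradiated 3.

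On the log2(FPKM + 1) scale, some genes around the pathway changed more than any gene of the set. Again none of the genes around the pathway was called by limma. By the ratio of means Hif3a, of the set, had the larger change, at 6.63, against 4.17 for Pdk4 and 3.84 for Angptl4. Of 27 further genes of glycolysis and pyruvate use, 24 were tested, 15 with a positive and 9 with a negative change and a median of 0.10. At an unadjusted p under 0.05, 1 was higher and 1 was lower (8.33% together), beside 17.7% of all genes tested (7.41% higher and 10.3% lower). Pdk4, a pyruvate dehydrogenase kinase that spares glucose when fat is burned, was at 17.6, 13.4 and 11.6 FPKM in irradiated 1, 2 and 3, against 1.44, 5.15 and 3.62 FPKM in control 1, 2 and 3. All irradiated libraries lay above all controls, irradiated 1 the highest, with a log2 change of 1.87 ± 0.34 (SE) and an adjusted p of 0.0816 in limma. Mpc2, a subunit of the mitochondrial pyruvate carrier, was at 28.3 ± 0.393 FPKM in irradiated lung and 34.5 ± 2.68 FPKM in control lung, with no overlap and an adjusted p of 0.185 in limma. Slc2a6, a glucose carrier of white blood cells, was at 4.96 ± 2.85 FPKM in irradiated lung and 1.97 ± 0.555 FPKM in control lung. Adpgk, an ADP-dependent glucokinase, was at 10.7 ± 2.30 FPKM in irradiated lung and 8.51 ± 0.602 FPKM in control lung.

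Of 7 genes of the pentose phosphate pathway, which makes NADPH from glucose 6-phosphate, 4 had a positive and 3 a negative change, with a median of 0.01. At an unadjusted p under 0.05, 2 were higher and 1 was lower, that is 3 of 7 genes, beside 17.7% of all genes tested. G6pdx, its first enzyme, was at 23.3 ± 2.43 FPKM in irradiated lung and 16.8 ± 1.45 FPKM in control lung, without overlap, with a log2 change of 0.45 ± 0.11 (SE) and an adjusted p of 0.119 in limma. G6pdx shares 19398 bases with Ikbkg on the opposite strand, whose log2 change was 0.33. Pgd, the other NADPH-making enzyme, was at 58.8 ± 4.25 FPKM in irradiated lung and 49.3 ± 2.40 FPKM in control lung, also without overlap. The ribose branch enzyme Rpia lay below all controls, at 8.17 ± 0.789 FPKM in irradiated lung and 10.3 ± 0.831 FPKM in control lung. Rpe, the epimerase beside it, was at 10.5 ± 1.55 FPKM in irradiated lung and 11.7 ± 0.0907 FPKM in control lung.

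Of 30 further HIF targets, 29 were tested, 15 with a positive and 14 with a negative change and a median of 0.01. At an unadjusted p under 0.05, 2 were higher and 3 were lower (17.2% together), close to the 17.7% of all genes tested. Ddit4, an inhibitor of mTORC1 that many stresses induce, was at 20.6, 22.5 and 37.3 FPKM in irradiated 1, 2 and 3, against 8.01, 10.4 and 11.2 FPKM in control 1, 2 and 3. All irradiated libraries lay well above the controls, irradiated 3 the highest, with a log2 change of 1.32 ± 0.23 (SE) and an adjusted p of 0.0793 in limma. Tfrc, the transferrin receptor, was at 10.0, 9.70 and 12.4 FPKM in irradiated 1, 2 and 3, against 17.2, 15.8 and 17.8 FPKM in control 1, 2 and 3. All irradiated libraries lay below the controls, with a log2 change of -0.62 ± 0.11 (SE) and an adjusted p of 0.0793 in limma. Angptl4, a secreted inhibitor of lipoprotein lipase, was at 52.3, 60.5 and 29.8 FPKM in irradiated 1, 2 and 3, against 4.80, 14.9 and 17.4 FPKM in control 1, 2 and 3. Its groups did not overlap, and the log2 change was 1.96 ± 0.49 (SE) with an adjusted p of 0.137 in limma. Fam162a, a mitochondrial protein that HIF-1 induces, lay the other way without overlap, at 22.0 ± 1.97 FPKM in irradiated lung and 33.4 ± 6.34 FPKM in control lung, with an adjusted p of 0.136 in limma. These HIF targets thus stood on both sides of their controls.

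Of 11 further regulators of HIF, 10 were tested, 4 with a positive and 6 with a negative change and a median of -0.05. At an unadjusted p under 0.05, 2 were higher and 1 was lower, that is 3 of 10 genes, beside 17.7% of all genes tested. The coactivators Ep300 and Crebbp lay the same way: Ep300 was at 12.9 ± 1.39 FPKM in irradiated lung and 10.1 ± 1.48 FPKM in control lung. Crebbp was at 7.69 ± 0.616 FPKM in irradiated lung and 6.16 ± 0.797 FPKM in control lung. Both overlapped between the groups, through irradiated 1 and control 1. Eloc, which joins Vhl to its ligase, was at 24.2 ± 0.439 FPKM in irradiated lung and 29.1 ± 2.08 FPKM in control lung, without overlap and with an adjusted p of 0.205 in limma. The ring finger subunit Rbx1 was at 32.1 ± 1.39 FPKM in irradiated lung and 36.1 ± 1.84 FPKM in control lung, also without overlap.

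Bpgm, which makes the red cell regulator 2,3-bisphosphoglycerate, was also looked at after its values were seen. It was at 29.0, 63.8 and 22.1 FPKM in irradiated 1, 2 and 3, against 23.7, 21.9 and 24.5 FPKM in control 1, 2 and 3. Irradiated 2 alone stood apart. Red cell markers (10 genes) summed to 1443 to 6255 FPKM in irradiated lung and 1347 to 1709 FPKM in control lung, with irradiated 2 again the highest. The part of red cell RNA in the Bpgm level was not tested.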

How the data were processed

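Whole lung of 6 libraries was compared, 3 irradiated and 3 control. Per the labels' protocols, TRIzol-extracted RNA was sequenced as polyA libraries (DNBSEQ-T7). Named without role or order in the submitters' processing notes are GRCm39, STAR 2.7.6a, fastp and DESeq2. Not given in the sources used here are the annotation, the strand setting and the step that made the tables. Per the file headers, each table holds coverage (the signal per base of a gene), FPKM and TPM. FPKM were used as deposited by the authors. The deposited coverage served to estimate depth only. TPM was left out, since the authors' tables also list 22644 to 24988 assembled loci, and for 40.1 to 41.6% of named genes at 1 FPKM or more such a locus repeats the same span and strand with an FPKM within 0.1%.

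Named rows were summed per gene. The test chosen for counts could not be used on FPKM, so limma 3.58.1 in R 4.3.3 (trend and robust variance, group as the model's term) was fitted to log2(FPKM + 1) for the 13908 genes that averaged 1 FPKM or more, with Benjamini-Hochberg adjustment. This scale understates changes of low genes. The procedure was tested on simulated data, with changes set in genes with a mean log2(FPKM + 1) above 2. It called 33.8% of 1.5-fold, 73.8% of 2-fold and 94.0% of 4-fold changes, and 4.28% of its calls were false. Many changes of 1.5-fold or less would thus be missed. No counting interval can be given without counts. Members and lists were chosen with earlier results of these data known. Values per library are given for members with an unadjusted p under 0.05 and for the 3 largest changes in each direction. From each pathway list up to 4 genes with the smallest p are named, some by group means alone. A few others are added where the text turns on their values. Coordinates of genes are those of the files, and promoter windows are RefSeq's of GRCm38.p6. Other pseudocounts, filters, scalings and variance estimates, the replicate block and leaving out each library were tried. Leaving out irradiated 2 and control 2 together was added after seeing the data. Figures were drawn in matplotlib 3.10.9, and tables handled in pandas 2.3.3 and numpy 2.4.6 under Python 3.11.15.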

Additional observations from a re-analysis of the deposited data

How the results depend on the processing

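Of the 36 genes, 24 kept the sign of their log2 change in every alternative that could test them. Against 25 genes called over all genes tested (9 higher and 16 lower), limma called 0 without a filter on low values (3531 at an unadjusted p under 0.05), 38 with a minimum mean of 5 FPKM, 13 with common-sum scaling (7 higher and 6 lower), 12 with median-ratio scaling, 9 without irradiated 2 and control 2, and 0 to 116 when a library was left out. It called 100 without irradiated 1, 3 without irradiated 2, 116 without irradiated 3, 1 without control 2, and 0 without control 1 and without control 3, with 1905 and 1650 at an unadjusted p under 0.05. Members called ranged between 0 and 2 when a library was left out, the 2 being Hif3a and Adm without irradiated 1, and were 0 under the other alternatives. With the replicate block, limma called 0 genes, with 1623 at an unadjusted p under 0.05. Same-numbered libraries had correlations of -0.17, -0.54 and -0.28 between their deviations, and none matched best with its own number. These correlations gave no sign of pairing by number. With 3 libraries per group they cannot exclude it.

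Common-sum scaling moved the median of all genes to 0.08, against -0.03, the median of the enzymes to 0.16 and that of the HIF targets to 0.21. With a minimum mean of 5 FPKM the HIF target median was -0.022 and its difference from the enzymes -0.057. Leaving out a library gave HIF target medians of -0.024 to 0.14 and differences of -0.097 to 0.15, so the direction of that difference rests on single libraries.

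The sign turned in 12 members, of which Pfkm had the largest log2 change, at -0.27. With common-sum scaling it was 0.11 for Pfkl, 0.078 for Aldoa, 0.025 for Egln1, 0.044 for Bnip3l and 0.10 for Ndrg1. Median-ratio scaling gave 0.029 for Pfkl and 0.020 for Ndrg1, upper-quartile scaling 0.0019 for Pfkl, and a common sum without the 20 most abundant genes 0.0016 for Pfkl. Without irradiated 2 and control 2 it was 0.064 for Pfkl, 0.083 for Pfkm, 0.073 for Aldoa and 0.086 for Ndrg1. With a library left out it ran between -0.0091 and 0.12 for Hk1, -0.064 and 0.049 for Pfkl, -0.13 and 0.068 for Aldoa, -0.20 and 0.29 for Aldoc, -0.033 and 0.14 for Pgk1, -0.044 and 0.14 for Ldha, -0.095 and 0.30 for Ankrd37, -0.094 and 0.075 for Ndrg1, and -0.024 and 0.14 for Kdm3a. Named genes summed to 306697, 298352 and 312652 FPKM in irradiated 1, 2 and 3. In control 1, 2 and 3 they summed to 333368, 350820 and 321039 FPKM. Scaling to a common sum thus raised each irradiated library relative to each control. A few abundant genes weigh heavily in these sums. Scgb1a1 was at 16267 to 26655 FPKM in irradiated lung and 30981 to 44203 FPKM in control lung. Sftpc was at 8741 to 9588 FPKM in irradiated lung and 14677 to 16828 FPKM in control lung. With a common sum without the 20 most abundant genes, the median of all genes was -0.018. Why the sums differ was not tested, and neither was the cause of the other shifts.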
